A study of Saccharomyces cerevisiae with 24 samples.

Results

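The swap examined here joined the *S. paradoxus* coding region of *FZF1* to the 5′ noncoding region of either species and asked what RNA levels differed 15 min after sulfite. It was read on 6 of 24 arrays, chosen by their titles. These were 3 arrays of strains with the full length *S. paradoxus* allele at 15 min and 3 arrays of strains with the C.P. chimera at 15 min, in which the *S. cerevisiae* 5′ noncoding region stands before the *S. paradoxus* coding region. All strains were haploid *S. cerevisiae* of the S288c background (Mat a, ho, ura3-52) with the native *FZF1* replaced by a KANMX cassette and the allele under test integrated at ura3 on the plasmid pRS306, which carries *URA3*. A few bases of the neighbouring genes *ZRT1* and *HXK2* came with each allele. The replicates were independent transformants, of which a subset was sequenced. Cultures grew at 30 °C in rich medium at low pH with tartaric acid, were sampled at 0 min, received sodium sulfite to 1 mM, and were sampled again at 15 min. The series also holds the full length *S. cerevisiae* allele and the reciprocal P.C. chimera (*S. paradoxus* 5′ noncoding, *S. cerevisiae* coding), with 3 arrays for each of the 4 alleles at each time. No array was taken at 15 min without sulfite, so sulfite and time cannot be told apart in a change from 0 min. Values are log2 ratios of a sample over a pool of all samples, so they compare samples for 1 gene and give no level between genes.

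*FZF1* encodes a zinc finger transcription factor of yeast. Its best known target is *SSU1*, the plasma membrane pump that carries sulfite out of the cell. Sulfite is a weak acid that enters yeast at low pH, reacts with thiols and carbonyl compounds, and touches sulfur amino acid metabolism, glycolysis and the stress response. A 5′ noncoding region sets when and how much a gene is transcribed, while the coding region here gave both groups the same Fzf1 protein. How well the *FZF1* probes of the array match the *S. paradoxus* coding sequence was not tested, and both groups carry that sequence.

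Of 4071 genes tested, 6 passed an adjusted p of 0.05 at 15 min between strains with the *S. paradoxus* allele and those with C.P. (0.147% of genes, limma over all 24 arrays with Benjamini-Hochberg adjustment). With the *S. paradoxus* allele 2 were higher (0.0491%) and 4 lower (0.0983%). A gene past this limit is named as called below. Genes for the chaperone Kar2, the membrane protein Hsp30, the phosphatase Dog1 and the methionine permease Mup3 were lower with the *S. paradoxus* allele, and genes for the cytokinesis protein Hof1 and the RNA surveillance protein Air1 were higher. The smallest of these differences was 0.59 and the largest 1.54 in size, on the log2 scale. At 0 min the same swap gave 0 called genes.

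Array quality and labels bear on these counts. Each array had between 12996 and 13224 features with a value. Cy5 labelled the sample on replicate 3 in both groups compared, and Cy3 labelled it on replicates 1 and 2. Replicate 3 of the *S. paradoxus* allele at 15 min stood apart from its group, with correlations over genes of 0.57 and 0.65 to the other two, against 0.91 between those. In the C.P. group the correlations of replicate 3 were 0.70 and 0.77, against 0.90. Of the arrays outside the comparison, the one labelled *S. cerevisiae* allele, replicate 2 at 0 min, went against its label, with an *FZF1* value of -3.63, where the other two arrays of that label had 0.18 and -0.11. Without it 7 genes were called, the same 6 and *TIS11*.

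*FZF1* itself gave -4.98, -3.92 and -4.43 on the *S. paradoxus* arrays and -5.04, -3.95 and -2.47 on the C.P. arrays at 15 min. The groups overlapped, and C.P. replicate 3 was the one array well above the rest. The difference of -0.62 ± 0.73 (log2, SE, n = 3 each) did not pass the test (limma adjusted p = 0.72, exact two-sided permutation p = 0.7). All arrays with the *S. paradoxus* coding region, at either time, read between -5.57 and -2.47. Those with the *S. cerevisiae* coding region read between -0.11 and 2.21, apart from the array that went against its label. With the probe match not tested, the p does not show equal *FZF1* RNA in the 2 groups. *FZF1* at 15 min minus 0 min was 0.53 with the *S. paradoxus* allele and 0.25 with C.P. (SE 0.73 each). By quantitative PCR with species-specific primers, the paper reported that *FZF1* rose after sulfite with every allele. The paper also reported higher *FZF1* after sulfite with the *S. paradoxus* promoter than with the *S. cerevisiae* promoter. The difference of -0.62 on these arrays had the other sign, and the reason was not tested. *URA3*, the marker integrated with the allele, gave -0.57, -0.46 and -0.37 on the *S. paradoxus* arrays and -0.40, 0.52 and 2.30 on the C.P. arrays. In the C.P. strains it thus spread widely between replicates, and replicate 3 was also the highest for *URA3* at 0 min, with 1.34 against -1.62 and -0.66 in replicates 1 and 2. The same array at 0 min had the highest *FZF1* value of its group, -2.90 against -4.40 and -4.92. Copies of the integrated plasmid were not counted here, and their part in any result was not tested. Without C.P. replicate 3 at 15 min 1 gene was called, *DOG1*, lower with the *S. paradoxus* allele.

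*SSU1* had 0.94, 1.04 and 1.46 on the *S. paradoxus* arrays and -0.03, 0.89 and 0.89 on the C.P. arrays. Every *S. paradoxus* array lay above every C.P. array, with *S. paradoxus* replicate 1 close to C.P. replicates 2 and 3. The difference was 0.56 ± 0.20 (log2, SE), with a limma adjusted p of 0.23 and an exact two-sided permutation p of 0.1, the smallest that 3 arrays against 3 can give, so it did not pass the limit. Before sulfite the difference was 0.42, and the swap at 15 min minus the swap at 0 min was 0.15 (adjusted p = 0.97). *YHB1*, the flavohemoglobin that detoxifies nitric oxide and is another known target of Fzf1, differed by 0.10 ± 0.12 with overlapping arrays (adjusted p = 0.73).

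The genes beside *FZF1* in the native locus were also measured. *HXK2*, the main hexokinase of glucose-grown yeast, had -0.68, -0.54 and -0.47 on the *S. paradoxus* arrays and -0.09, -0.10 and -0.16 on the C.P. arrays. These arrays did not overlap, and the difference of -0.45 ± 0.13 had an adjusted p of 0.16. *ZRT1*, the high affinity zinc transporter, differed by -0.20 ± 0.24 with overlapping arrays (adjusted p = 0.73). *MET7*, folylpolyglutamate synthetase, had 0.04 ± 0.05 with the *S. paradoxus* allele and -0.26 ± 0.10 with the C.P. chimera (SD, n = 3 each), apart on all arrays with an adjusted p of 0.16.

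**Figure D1:**
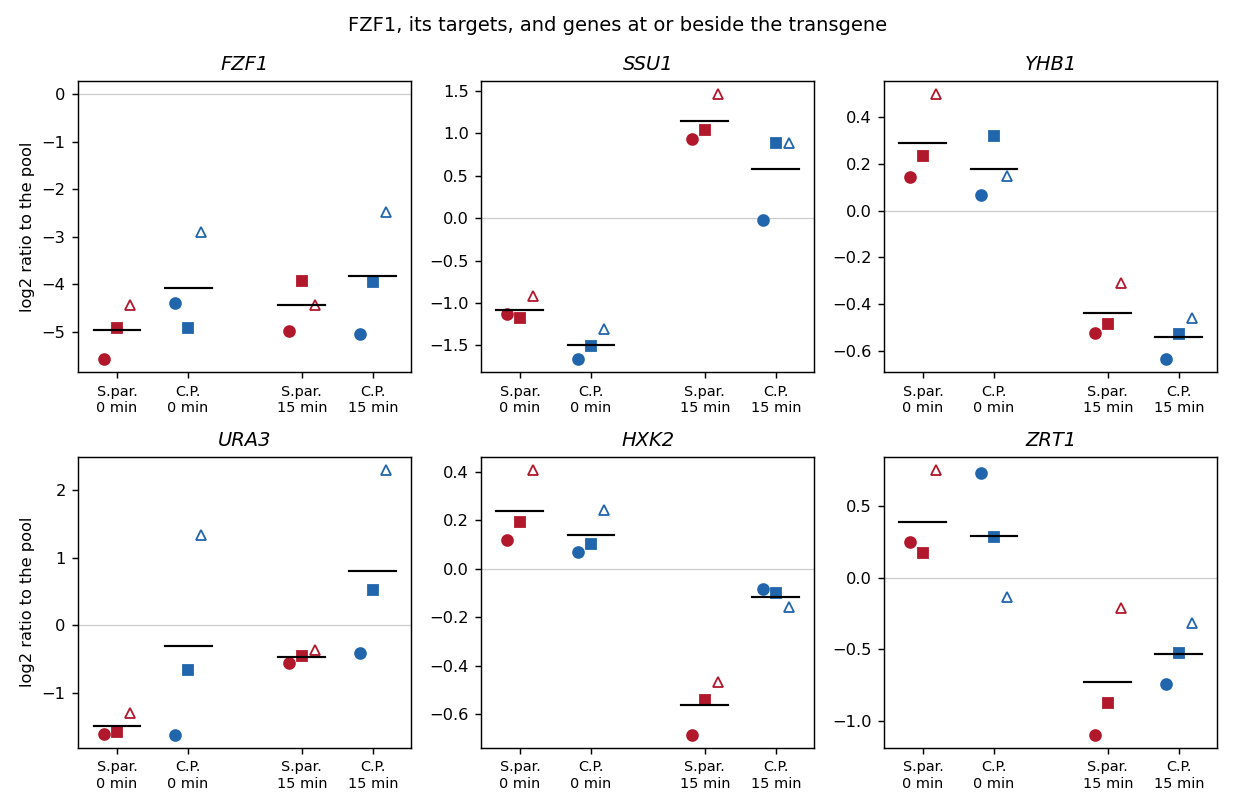
Log2 ratio to the pool of *FZF1*, *SSU1*, *YHB1*, *URA3*, *HXK2* and *ZRT1* on each array, with the *S. paradoxus* allele in red left of C.P. in blue at 0 and 15 min. Circles, squares and open triangles are replicates 1, 2 and 3 (replicate 3 had the sample in Cy5), and bars are means. C.P. replicate 3 is the highest for *FZF1* and *URA3* at both times, and the *SSU1* arrays of the *S. paradoxus* allele lie above those of C.P.

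Among the called genes, *KAR2* encodes the Hsp70 chaperone of the endoplasmic reticulum, which folds secretory proteins and is a classical target of the unfolded protein response. It had -0.23, -0.26 and -0.19 on the *S. paradoxus* arrays and 0.47, 0.52 and 0.77 on the C.P. arrays. The *S. paradoxus* arrays were tightly grouped and all lay well below the lowest C.P. array, a difference of -0.81 ± 0.13 or 1.76-fold (log2, SE, limma adjusted p = 0.0105). The value at 15 min minus that at 0 min was 0.25 with the *S. paradoxus* allele and 0.97 with C.P.

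*HSP30*, a plasma membrane stress protein known to restrain the proton pump Pma1, had the largest difference among called genes. Its values were -0.40, -0.30 and -0.22 with the *S. paradoxus* allele and 1.16, 0.89 and 1.65 with C.P. The groups were separated by more than the whole spread of either, with a difference of -1.54 ± 0.25, 2.91-fold lower with the *S. paradoxus* allele (adjusted p = 0.013). Sulfite raised the gene by 2.61 with the *S. paradoxus* allele and by 4.22 with C.P., on the log2 scale.

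*DOG1*, a sugar phosphatase that acts on 2-deoxyglucose-6-phosphate, had 0.21, 0.22 and 0.03 with the *S. paradoxus* allele and 0.99, 1.42 and 0.82 with C.P., a difference of -0.92 ± 0.16 (adjusted p = 0.019). *MUP3*, a low affinity methionine permease, had -0.29, -0.18 and -0.04 with the *S. paradoxus* allele and 0.49, 0.41 and 0.47 with C.P., a difference of -0.63 ± 0.12 (adjusted p = 0.034). Both genes were thus lower on each *S. paradoxus* array than on any C.P. array. *DOG1* is a sulfite responsive gene in all 4 alleles, at 2.32 above its level before sulfite with the *S. paradoxus* allele and 3.19 above it with C.P. For *MUP3* the same difference was 0.38 with the *S. paradoxus* allele and 0.96 with C.P.

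Higher with the *S. paradoxus* allele were *HOF1*, an F-BAR protein of the bud neck needed for cytokinesis, and *AIR1*, a zinc knuckle subunit of the TRAMP complex that marks nuclear RNA for decay. *HOF1* had 0.16, 0.07 and -0.29 with the *S. paradoxus* allele and -0.56, -0.73 and -0.76 with C.P., a difference of 0.66 ± 0.12 (adjusted p = 0.026). *AIR1* had 0.01, -0.17 and 0.08 with the *S. paradoxus* allele and -0.67, -0.48 and -0.69 with C.P., a difference of 0.59 ± 0.11 (adjusted p = 0.029). In both cases the higher group was the one nearer to its level before sulfite. The value at 15 min minus that at 0 min was -0.29 for *HOF1* and -0.36 for *AIR1* with the *S. paradoxus* allele, against -1.09 and -0.87 with C.P. In a bulk culture, fewer cells at a stage of the cell cycle and less RNA per cell cannot be told apart.

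**Figure D2:**
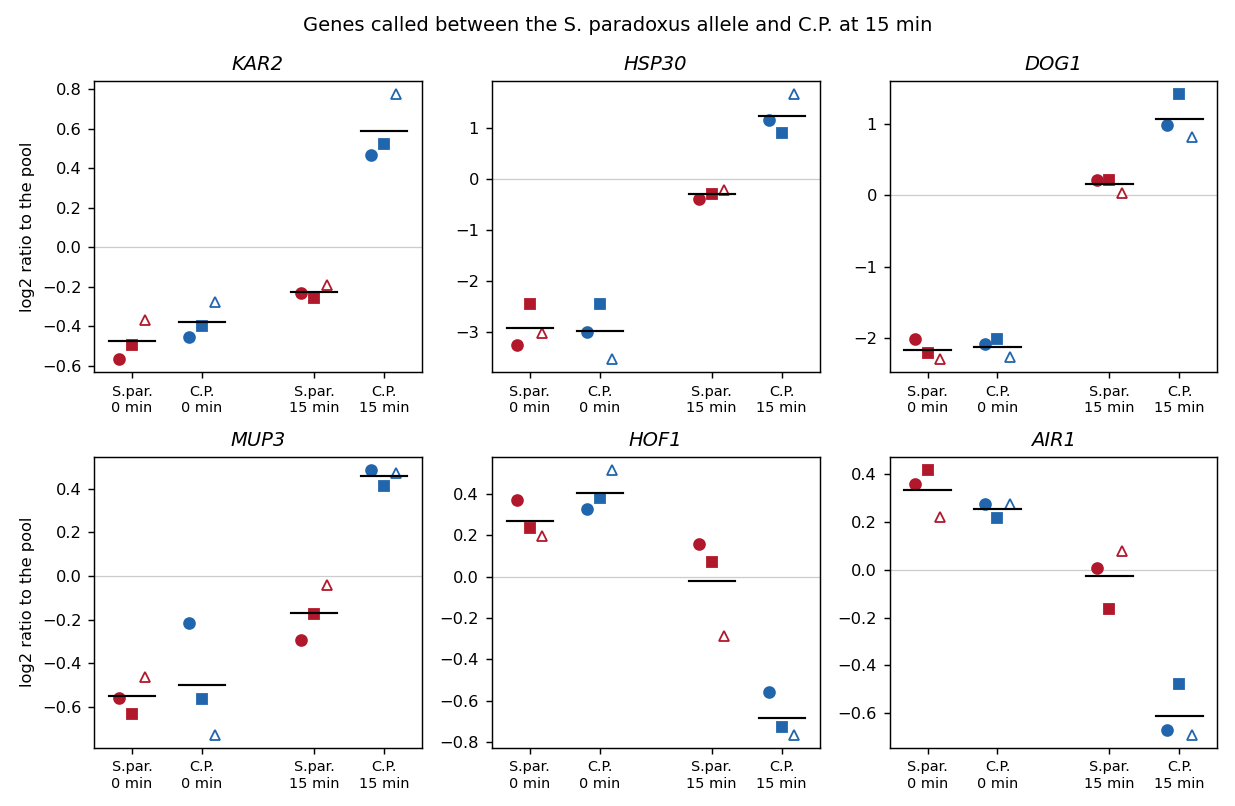
Log2 ratio to the pool of the 6 called genes on each array, with the *S. paradoxus* allele in red left of C.P. in blue at 0 and 15 min. Circles, squares and open triangles are replicates 1, 2 and 3, and bars are means. At 15 min no array of one allele reaches the range of the other in any of the 6 genes.

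At 0 min the differences of these 6 genes lay between -0.14 for *HOF1* and 0.08 for *AIR1*. The swap at 15 min minus the swap at 0 min was -1.62 for *HSP30* and 0.80 for *HOF1*, each with an adjusted p of 0.46, and no gene passed that test (0 called, 232 genes or 5.7% at an unadjusted p under 0.05). That fit took the arrays of a culture at 0 and 15 min as independent. With allele and replicate number as a random block (correlation 0.329), limma again called 0, with 498 genes at an unadjusted p under 0.05. At 0 min alone, 49 genes (1.2%) had an unadjusted p under 0.05 and 0 were called, with 0 also called with a dye term or a replicate block. At 15 min the share at an unadjusted p under 0.05 was 13.5% (551 genes, of which 248 were higher and 303 lower with the *S. paradoxus* allele). Named by the smallest p of this difference between times were also *SCM3*, which loads the centromeric histone, at -0.73, *HIR2*, a repressor of histone genes, at 0.47, *SSU72*, an RNA polymerase II phosphatase, at 0.47 and *FIR1* at 0.50. Each had an adjusted p of 0.74.

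The call rests on few arrays. Same-numbered arrays of the groups deviated together, but Cy3 arrays of different numbers did so too, and the Cy5 array had the same number in both groups. With the replicate number as a block 26 genes were called (0.639%), 8 higher (0.197%) and 18 lower (0.442%) with the *S. paradoxus* allele. With a dye term 71 were called (1.74%), 30 higher (0.737%) and 41 lower (1.01%), and both fits held the 6 genes above. With only the 6 arrays in the fit, 0 were called without the dye term (339 at an unadjusted p under 0.05) and 81 with it. Leaving out *S. paradoxus* replicate 1 or 2 left 0, and leaving out its replicate 3 gave 256, of which 76 were higher and 180 lower. Each of the 6 differences kept its sign in every fit with 1 array left out, that of *HSP30* between -1.71 and -1.33 and that of *KAR2* between -0.87 and -0.72.

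The next genes by p among those lower with the *S. paradoxus* allele did not pass the limit in the fit without a dye term, but all 12 of the smallest p in each direction passed it with one. Lower were *TIS11* (-1.09 ± 0.22, adjusted p = 0.052), whose protein destabilises mRNAs of iron-using proteins when iron is short, and *PDR5* (-0.88 ± 0.19), the drug efflux pump of the plasma membrane. *TIS11* had 0.14, -0.28 and 0.14 on the *S. paradoxus* arrays and 1.08, 0.88 and 1.32 on the C.P. arrays. *PDR5* had -1.26, -1.26 and -0.92 with the *S. paradoxus* allele and -0.32, -0.31 and -0.16 with C.P. Both were apart on all 6 arrays. They were followed by *AGP1* (-0.75, a broad amino acid permease), *DOA4* (-0.43, a deubiquitinating enzyme), *UBA1* (-0.54, the ubiquitin activating enzyme), *ERV29* (-0.58, a cargo receptor of vesicles that leave the endoplasmic reticulum), *PDR12* (-0.85, the weak acid efflux pump) and *URH1* (-0.64, uridine nucleosidase).

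On the higher side *CLB1*, a B-type cyclin of mitosis, had 0.12, -0.05 and -0.13 with the *S. paradoxus* allele and -0.60, -0.53 and -1.10 with C.P. (0.72 ± 0.16, adjusted p = 0.066). *CDC5*, the polo kinase, had 0.52 and *CDC20*, the activator of the anaphase promoting complex, had 0.43. *BFR2*, a ribosome biogenesis factor, had 0.67 ± 0.15, and *ARG3*, ornithine carbamoyltransferase of arginine synthesis, had 1.11, 1.12 and 1.43 with the *S. paradoxus* allele and 0.47, 0.57 and 0.29 with C.P. (0.78 ± 0.19, adjusted p = 0.11). The remaining ones were *YHP1* (0.65, a homeodomain repressor of M/G1 genes), *ARO10* (0.62, phenylpyruvate decarboxylase), *BUD27* (0.53, a prefoldin-like protein of RNA polymerase assembly), *RPC10* (0.39, a subunit shared by the RNA polymerases) and *RPI1* (0.35). All of them were apart on all 6 arrays.

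Genes picked by size alone had wider errors. Of differences of at least 1 on the log2 scale, 13 were lower with the *S. paradoxus* allele (0.319%) and 0 higher. Among genes with arrays that did not overlap, *AUA1* (-2.16 ± 1.26) and *DAN1* (-2.07 ± 0.72) were the lowest, and both had 1 high C.P. array. C.P. replicate 1 had 3.50 for *AUA1* and 1.92 for *DAN1*, where the next C.P. array had -0.03 and -0.06, and *S. paradoxus* replicate 2 was low for *DAN1* at -3.00. The anaerobic mannoprotein gene *DAN1* had an adjusted p of 0.22 and *AUA1* of 0.46. *CIT2*, the peroxisomal citrate synthase, had -0.29, -0.29 and -0.75 with the *S. paradoxus* allele and 0.80, 0.44 and 0.95 with C.P., a difference of -1.18 ± 0.29 (adjusted p = 0.11, and 0.023 with a dye term). *ADY2*, an acetate transporter, differed by -1.13 and *SPS1*, a sporulation kinase, by -1.20. At the other end *ARO9*, the aromatic aminotransferase that acts beside Aro10, was 0.67 higher and *SMA1*, a spore membrane gene with an adjusted p of 0.60, was 0.82 higher.

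**Figure D3:**
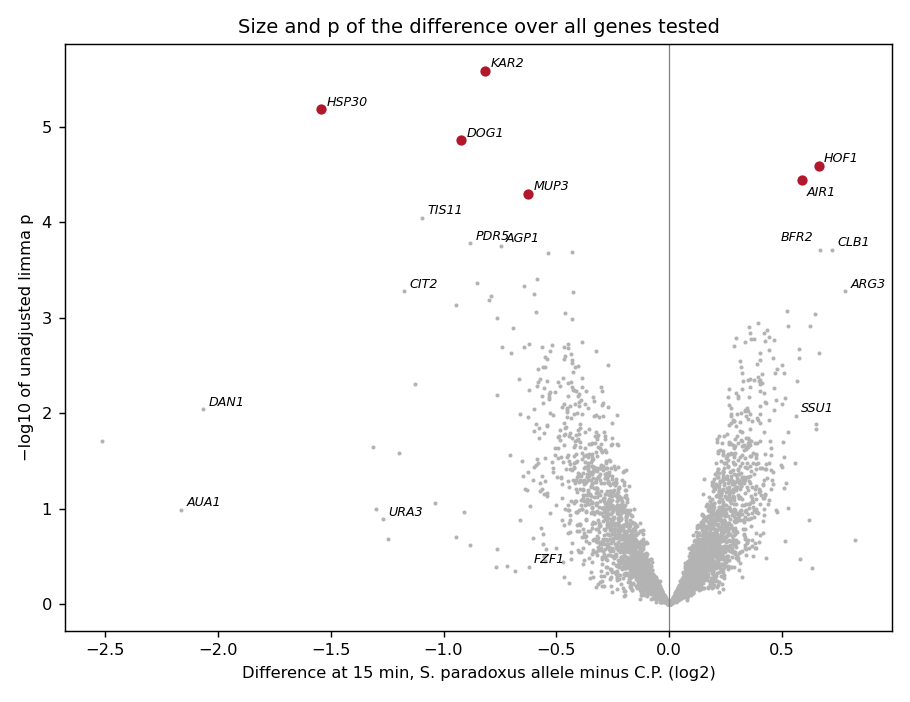
Difference at 15 min, *S. paradoxus* allele minus C.P. (log2, x axis), against −log10 of the unadjusted limma p (y axis) for 4071 genes. Red points are the 6 called genes. The lower side reaches further in size, with 13 genes at -1 or below and 0 at 1 or above.

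Over all genes, 615 (15.1%) had 3 *S. paradoxus* arrays that did not overlap the 3 C.P. arrays at 15 min, 341 higher (8.38%) and 274 lower (6.73%). The arrays of the other alleles were set beside them. For 143 of 4069 genes with a value on every 15 min array (3.51%) the 3 *S. paradoxus* arrays lay outside the range of the 9 arrays of all other alleles, 81 above (1.99%) and 62 below (1.52%). The same count was 6 for C.P. (0.147%), 15 for P.C. (0.369%) and 14 for the *S. cerevisiae* allele (0.344%). All 6 called genes were of the first kind. *HSP30*, for example, had -0.31 ± 0.09 with the *S. paradoxus* allele, against 1.33 ± 0.33 with P.C. and 0.62 ± 0.32 with the *S. cerevisiae* allele (SD, n = 3 each). *HOF1* had -0.02 ± 0.23 with the *S. paradoxus* allele, against -0.63 ± 0.22 with P.C. and -0.53 ± 0.10 with the *S. cerevisiae* allele. *SSU1* and *HXK2* were of this kind too, while none of the 12 genes with the smallest p in either direction had C.P. arrays outside all others. The called genes and those with the smallest p were picked on *S. paradoxus* and C.P. arrays, which these ranges also use. Their counts here are thus no separate result.

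Gene lists are given by counts and medians beside those of all genes tested, where 53.7% were higher and 46.3% lower with the *S. paradoxus* allele and the median was 0.02. Heat shock and chaperone genes were lower in 25 of 26 measured, with a median of -0.34. Called among them, both as lower, were *KAR2* and *HSP30* (0.0983% of all genes were). At an unadjusted p under 0.05, 12 were lower (7.44% of all genes were), and 8 were lower and apart on all arrays (6.73%). *BTN2*, which sequesters misfolded proteins, had a large but uneven difference of -1.31 ± 0.53 (adjusted p = 0.30). The list's median per array was 0.06, -0.11 and -0.09 with the *S. paradoxus* allele and 0.46, 0.22 and 0.66 with C.P., so the arrays did not overlap. General stress response genes had a median of -0.06 (22 of 32 lower, 0 called), which was -0.14 without C.P. replicate 1, -0.15 without its replicate 2 and turned to 0.068 without its replicate 3.

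Iron uptake genes were lower in 25 of 30 measured, with a median of -0.37. In the fit without a block 0 were called. As lower, 2 were called with the replicate block (0.442% of all genes were) and 3 with a dye term (1.01%). Of the 30, 15 were lower at an unadjusted p under 0.05 (7.44% of all genes were). On all arrays 10 were lower and apart (6.73% of all genes were). *TIS11* stood first, followed by the low affinity iron transporter *FET4* (-0.80 ± 0.20, adjusted p = 0.12) and the siderophore transporter *SIT1* (-0.74 ± 0.21). *FET4* had -0.58, -0.84 and 0.02 with the *S. paradoxus* allele and 0.27, 0.49 and 0.23 with C.P. *S. paradoxus* replicate 3 was thus close to the C.P. range for this gene, and the list's median of that array, 0.17, lay between C.P. values of 0.13 and 0.18, where the other two had -0.27 and -0.25.

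Genes of protein folding, glycosylation and export in the endoplasmic reticulum were gathered after the values of *KAR2*, *ERV29* and others had been seen, so their count describes these arrays and supports nothing. Of 75 measured, 59 were lower with a median of -0.25. At an unadjusted p under 0.05, 29 were lower (7.44% of all genes were), and 21 were lower and apart on all arrays (6.73%). *KAR2* was the only one called without a dye term or block (0.0983% of all genes were called as lower). With a dye term 11 were called as lower (1.01% of all genes were), and with the replicate block 3 (0.442%). *MCD4*, which acts in GPI anchor synthesis, had -0.84, -0.66 and -0.41 with the *S. paradoxus* allele and 0.03, 0.20 and 0.24 with C.P. (-0.79 ± 0.19, adjusted p = 0.11). *SPF1*, a P-type ATPase of the endoplasmic reticulum, differed by -0.62 with overlapping arrays. The median per array was -0.28, -0.26 and -0.10 with the *S. paradoxus* allele and 0.01, 0.00 and 0.10 with C.P.

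Glycolysis and hexose transport genes were lower in 21 of 25 (median -0.32, 0 called). As lower, 3 were called with a dye term (1.01% of all genes were) and 1 with the replicate block (0.442%). The hexose transporters *HXT2* (-0.94 ± 0.24, adjusted p = 0.13) and *HXT1* (-0.63 ± 0.22) led the list. *HXT2* had -2.35, -2.25 and -1.98 with the *S. paradoxus* allele and -1.30, -1.64 and -0.81 with C.P., apart on all arrays. The list's median was -0.17 without *S. paradoxus* replicate 1 and -0.54 without its replicate 3. Citric acid cycle and respiration genes were higher in 30 of 51, with a median of 0.048 and 0 called. Weak acid and drug efflux genes were lower in 24 of 26 (median -0.22, 0 called), with *PDR5* and *PDR12* first and the polyamine exporter *TPO3* at -0.76. As lower, 2 of the list were called with a dye term (1.01% of all genes were) and 2 with the replicate block (0.442%). The list's median was -0.14 without *S. paradoxus* replicate 1, -0.39 without its replicate 3 and -0.13 without C.P. replicate 3. Ergosterol synthesis genes were lower in 20 of 27 (median -0.20, 0 called), with the sterol acyltransferase *ARE2* at -0.76 ± 0.20 and *ERG3*, sterol C-5 desaturase, at -0.59 ± 0.22. Their median was -0.067 without *S. paradoxus* replicate 1, -0.31 without its replicate 3 and -0.12 without C.P. replicate 3.

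Among sulfur genes 1 was called, as lower (0.0983% of all genes were). Sulfate assimilation genes were lower in 6 of 11 with a median of -0.02, or 0.0054 without centring on the genes, and 0 called. Leaving out any 1 of the 6 arrays moved this median by over 1.5 times, between -0.14 without *S. paradoxus* replicate 3 and -0.0014 without C.P. replicate 2. The sulfate permease genes *SUL1* and *SUL2* differed by -0.94 ± 0.71 and -0.42 ± 0.18 with overlapping arrays, and *MET3*, ATP sulfurylase, by -0.35. Methionine and cysteine synthesis genes were lower in 14 of 17 (median -0.24, 0 called), among them *SAM1* (-0.41), S-adenosylmethionine synthetase, and *STR3* (-0.41), cystathionine beta-lyase. Their median was -0.12 without *S. paradoxus* replicate 1, -0.43 without its replicate 3 and -0.13 without C.P. replicate 3, where 6 were higher and 11 lower. Of sulfur regulators and transporters 8 of 11 were lower (median -0.12, or -0.21 without *S. paradoxus* replicate 1), with *MUP3* called and the S-adenosylmethionine permease *SAM3* at -0.67 ± 0.21.

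Other lists had more members higher than lower. Ribosome biogenesis genes were higher in 67 of 85 (median 0.18, 0 called). At an unadjusted p under 0.05, 7 were higher (6.09% of all genes were), and 11 were higher and apart on all arrays (8.38%). The largest were *UTP9* (0.65 ± 0.24) and *CIC1* (0.57 ± 0.16), factors of the small and large subunit. The median was 0.093 without *S. paradoxus* replicate 3, with 59 of 85 higher. In front of the *S. cerevisiae* coding region the same list had a median of 0.19, P.C. minus the *S. cerevisiae* allele. RNA polymerase I and III genes were higher in 29 of 36 (median 0.17, or 0.077 without *S. paradoxus* replicate 1, 0 called). Apart on all arrays were 5 higher and 5 lower (8.38% and 6.73% of all genes were). Among the list were *RRN11* (0.58 ± 0.17), a polymerase I initiation factor, and *RPA14* (0.46), while the second largest subunit gene *RPA135* was -0.53. Histone genes were higher in 10 of 10 (median 0.17) with 0 called and 4 higher and apart on all arrays (8.38% of all genes were). *HTA1* was at 0.38 ± 0.19 and *HHT1* at 0.35 ± 0.20. G2/M and mitotic exit genes were higher in 18 of 29 (median 0.10, or 0.21 without *S. paradoxus* replicate 3), with 0 called. At an unadjusted p under 0.05, 8 were higher (6.09% of all genes were), and 3 were called as higher with the replicate block (0.197%).

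The lists for mating type were also read, but ratios to a pool give no level and cannot show the mating type of a strain. Genes of a cells and haploids were higher in 15 of 17 (median 0.13, or 0.23 without *S. paradoxus* replicate 2 and 0.25 without C.P. replicate 3, 0 called), with the a-factor gene *MFA2* at 0.47 ± 0.15 and *GPA1* at 0.42 ± 0.14. The 4 alpha genes had a median of -0.43, or -0.27 without *S. paradoxus* replicate 2, with 0 called. Before sulfite, at 0 min, their median was already -0.36. At 15 min *STE3*, the receptor of alpha cells, had 0.05, -0.07 and 0.01 with the *S. paradoxus* allele and 1.02, 0.45 and 0.28 with C.P. Their part in the other differences was not tested.

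**Figure D4:**
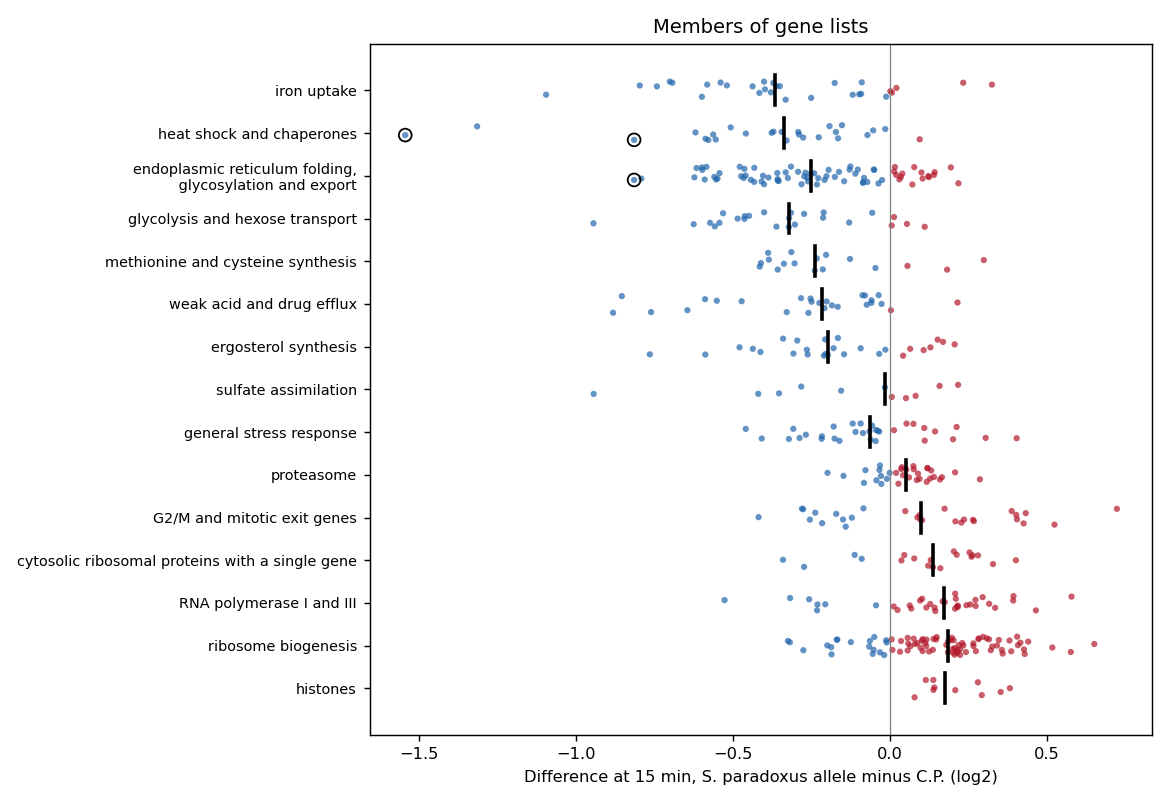
Difference at 15 min, *S. paradoxus* allele minus C.P. (log2, x axis), of each measured member of 15 gene lists. Red points are higher and blue points lower with the *S. paradoxus* allele, vertical bars are medians and black rings mark called genes. Iron uptake genes have a median of -0.37 and ribosome biogenesis genes one of 0.18.

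Genes that changed after sulfite were taken from the strains outside the comparison, as those with a change of at least 4-fold the same way with both the *S. cerevisiae* allele and P.C. The 118 induced genes had a median difference of -0.14 at 15 min, with 81 of them (68.6%) lower with the *S. paradoxus* allele, against 46.3% of all genes. Their median per array was 0.55, 0.65 and 0.67 with the *S. paradoxus* allele and 0.74, 0.68 and 0.88 with C.P. The highest *S. paradoxus* array was just below the lowest C.P. array. The 97 repressed genes had a median difference of 0.18, with 79 (81.4%) higher with the *S. paradoxus* allele, against 53.7% of all genes. Their median per array was -1.58, -1.71 and -1.40 with the *S. paradoxus* allele and -1.84, -1.79 and -1.60 with C.P., and here the groups overlapped. The repressed genes already had a median difference of 0.082 at 0 min. In front of the *S. cerevisiae* coding region their median difference at 15 min was 0.21, in the same direction, while that of induced genes was 0.065, in the other. Leaving out arrays of 1 number from every group gave -0.22 without number 2 and -0.058 without number 3 for induced genes, and 0.11 without number 1 for repressed genes.

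These shifts were small beside the response itself, whose median was 2.44 with the *S. paradoxus* allele and 2.51 with C.P. for induced genes, and -2.31 and -2.42 for repressed genes. With a limit of 2-fold, the 362 repressed genes had a larger median response with the *S. paradoxus* allele, -1.66, than with C.P., -1.58. *DOG1* and *HSP30* were the induced genes called as lower (0.0983% of all genes were), and no repressed gene was called. Other induced genes with large differences were *TIS11*, *AGP1* and the polyamine transporter *TPO4* (-0.65 ± 0.18). *ARG3* ran the other way, higher by 0.78 among induced genes, as did *SDP1*, a stress-induced MAP kinase phosphatase, by 0.42. Among repressed genes the ribosome biogenesis factors *BFR2*, *UTP9* and *CIC1* were among those with the highest differences.

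The exchange of noncoding regions was also made in front of the *S. cerevisiae* coding region, on arrays that the comparison above does not use. There P.C. minus the *S. cerevisiae* allele at 15 min gave 0 called genes (limma, 133 genes or 3.27% at an unadjusted p under 0.05, and 0 called with a dye term or a replicate block). Over 4071 genes the differences of the exchange with the *S. paradoxus* and *S. cerevisiae* coding regions had Pearson's r = -0.45 and Spearman's rho = -0.51, and 2824 genes (69.4%) had opposite signs. This is a description across genes, which are not independent replicates, and the differences come from separate arrays in 1 fit.

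The difference between coding regions was tested directly and passed for 15 genes (0.368%), 6 with a higher (0.147%) and 9 with a lower value (0.221%) for the *S. paradoxus* coding region. *HSP30* was -1.54 with the *S. paradoxus* coding region and 0.71 with the *S. cerevisiae* coding region, a difference of -2.25 ± 0.36 (adjusted p = 0.0175). *PDR5* was -0.88 and 0.69 in the same order (-1.58 ± 0.27, adjusted p = 0.0175). On the P.C. arrays *PDR5* had 0.36, -0.59 and 0.15, and on the *S. cerevisiae* arrays -0.56, -0.69 and -0.92. *KAR2* differed by -1.02 ± 0.18 between coding regions and *ARG3* by 1.45 ± 0.27 (adjusted p = 0.0175 and 0.020). All 15 had opposite signs with the 2 coding regions, and 5 of the 6 genes called above were among them. The exception was *HOF1*, with an adjusted p of 0.0503. This test favours genes with opposite signs and uses the same *S. paradoxus* and C.P. arrays as the calls above. The opposite signs and the shared genes are thus no separate results. *FZF1* itself was higher by 1.14 with P.C. than with the *S. cerevisiae* allele (limma adjusted p = 0.998). It had 2.21, 2.08 and 1.84 on P.C. arrays and 1.01, 0.74 and 0.95 on *S. cerevisiae* arrays, which did not overlap. The error in this test is pooled over all 8 groups, among them the array that went against its label. This p therefore does not show equal *FZF1* levels.

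**Figure D5:**
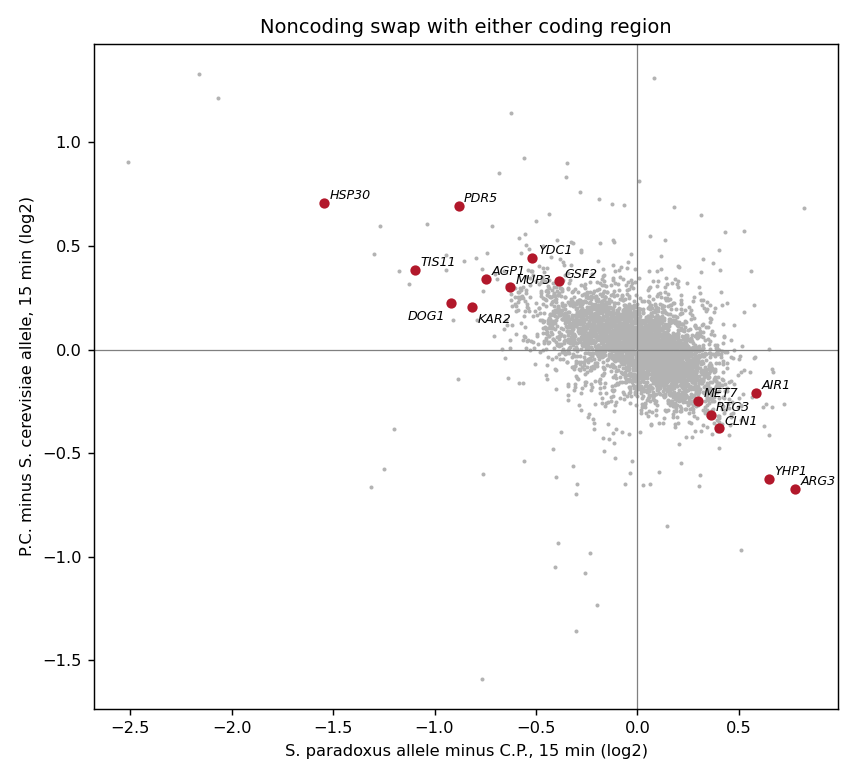
Difference at 15 min on exchange of the 5′ noncoding region with the *S. paradoxus* coding region (*S. paradoxus* allele minus C.P., log2, x axis) and with the *S. cerevisiae* coding region (P.C. minus *S. cerevisiae* allele, log2, y axis) for 4071 genes. Red points are the 15 genes whose differences depended on the coding region. All of them lie in the upper left or lower right quadrant, which the test that picked them favours.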

How the data were processed

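RNA of each sample was read against a pool of all samples on Agilent yeast V2 arrays in 2 colours. The values are log2 ratios of sample to pool as deposited by the authors, after their median normalization of the arrays. The background correction is not given in the sources used here. Value rows and the platform's probe numbers run in different orders. They were matched by position on the array's grid, a match that rests on the values, since no source used here states it. Under it, features of 1 gene correlated at a median of 0.928 across arrays (−0.0064 with equal numbers). Of 15744 features 8152 carried 1 symbol, for 4073 genes, and 125 symbols were updated.

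A gene's value was the mean over its features, less the array's median over genes. The 8 groups were fitted in R 4.3.3 with limma 3.58.1, for the 4071 genes measured on 2 or more arrays in every group, with Benjamini-Hochberg adjustment and a limit of 0.05. Scripts were tested on simulated data. Exact permutation tests used SciPy. Replicates were independent transformants, and the dye of the sample differed between replicates in every group. Without a dye term, the spread behind the limma p-values thus mixes transformant and dye. It is pooled over all 8 groups.

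Same-numbered *S. paradoxus* and C.P. arrays at 15 min deviated together (correlations of 0.48, 0.31 and 0.74), so the blocked count is given beside the main one. Number 3 was the Cy5 array in both groups, and arrays numbered 1 and 2 also correlated across numbers at 0.33 and 0.46.

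The comparison, the genes and the lists were chosen with earlier results of these data known. Genes named were drawn from *FZF1*, *SSU1*, *YHB1*, *ZRT1*, *HXK2*, *URA3* and *MET7*, the 12 smallest p each way among genes with all 6 values, the 6 largest differences each way among genes without overlap, the 3 largest differences in each list, the 4 smallest p each way for the difference between times and between coding regions, and the 5 largest differences each way among sulfite response genes. Not every gene that these rules gave is named. Lists read but not described in the text were oxidative stress, pyruvate and ethanol, gluconeogenesis, pentose phosphate, arginine, other amino acids and aromatic amino acid breakdown. Metal and phosphate uptake, nucleotide synthesis, proteasome, G1/S and single-gene ribosomal protein lists were not described either. No gene of these lists was called. *GSF2* and *YDC1* were named after their values were seen. Alternatives were a dye term, a replicate block, other scalings, array weights, a robust fit, Cy3 arrays alone, complete genes, the study's model and leaving out arrays. For the difference between times, culture as a random block was a further one.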

Additional observations from a re-analysis of the deposited data

Results flagged for a closer look

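The exchange of the 5′ noncoding region at 15 min differed between the coding regions for 15 genes by a test of the difference itself (limma over all 24 arrays, Benjamini-Hochberg adjusted p under 0.05). Values are the difference with the *S. paradoxus* coding region minus that with the *S. cerevisiae* coding region, on the log2 scale. Lower were *HSP30* (-2.25), *PDR5* (-1.58), *TIS11* (-1.48), *DOG1* (-1.14), *AGP1* (-1.09), *KAR2* (-1.02), *YDC1* (-0.96), *MUP3* (-0.93) and *GSF2* (-0.72). *YDC1* encodes an alkaline ceramidase and *GSF2* a protein of the endoplasmic reticulum needed for export of hexose transporters. Higher were *ARG3* (1.45), *YHP1* (1.27), *AIR1* (0.79), *CLN1* (0.78), a G1 cyclin, *RTG3* (0.68), a factor of the retrograde response, and *MET7* (0.54). Their adjusted p lay between 0.0175 for *HSP30* and 0.040 for *TIS11*. *CLN1* was 0.40 with the *S. paradoxus* coding region and -0.38 with the *S. cerevisiae* coding region, and *RTG3* was 0.36 and -0.31. The count fell to 0 without C.P. replicate 3 or *S. cerevisiae* replicate 2 at 15 min and was 215 without *S. paradoxus* replicate 3. Groups of 3 arrays were too small for a test of single outlying arrays.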

How the results depend on the processing

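For the swap with the *S. paradoxus* coding region at 15 min, the 6 called genes became 13 at an adjusted p of 0.1, 71 with a dye term, 26 with the replicate block, 226 on Cy3 arrays alone, 1054 with array weights and 0 with only the arrays compared. The study's model, which takes each feature as an observation, gave 694 genes at its limit of 0.01 and 648 after Benjamini-Hochberg adjustment. Chosen after seeing the data, a dye term on the 6 arrays alone gave 81, a dye term for each time 47, and a dye term without C.P. replicate 3 gave 1. Leaving out single arrays or replicate numbers gave 0 to 256. Arrays whose loss moved the count by over 1.5 times were *S. paradoxus* replicates 1 (0), 2 (0) and 3 (256) and C.P. replicates 2 (2) and 3 (1).

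The swap at 0 min gave 0 in every fit run. Its difference from 15 min gave 0, except 67 with array weights. With the *S. cerevisiae* coding region the 0 became 1 on Cy3 arrays and 0 to 2 on leaving out arrays. The 15 genes that differed between coding regions became 53 at an adjusted p of 0.1, 469 on Cy3 arrays, 499 with array weights, 124 with a dye term, 87 with a dye term for each time, 67 with the replicate block, 29 in the robust fit, 1 with only the arrays compared and 0 to 462 on leaving out arrays.

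Of single genes named, only *FZF1* changed direction, to 0.045 on Cy3 arrays and without replicate 3 and to 0.053 without C.P. replicate 3 at 15 min, with a range of -1.23 to 0.053 on leaving out arrays. The 6 called genes kept their direction in all 144 refits and their call in 96. The median of induced sulfite genes stayed between -0.22 and -0.058 and that of repressed genes between 0.11 and 0.27. Signal over background was not read, and 3 arrays a group limit the precision.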
